A study of Mus musculus with 15 samples.

Results

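The bodies of very long genes were defined as the measured cytosines on autosomes that lay inside a protein-coding gene of at least 300 kb, more than 5 kb from both of its ends, and in a 1 kb window with fewer than 10 measured CpG positions. Gene positions came from RefSeq on the build GRCm38.p6. Of 20,665 autosomal protein-coding genes, 533 reached 300 kb, and 532 of these held at least 1 measured position. They contained 22,234 of the 455,836 CpG positions of the series and 159,462 of its 2,462,278 non-CpG positions. The comparisons used the 6765 CpG sites and 45,384 non-CpG sites of long genes that had a value in every mouse, leaving out 4 non-CpG entries at repeated positions. Per gene, 479 long genes had at least 3 such CpG sites and 505 had at least 10 such non-CpG sites. For CpG, 19 long genes had no complete site and 35 had too few, and for non-CpG these numbers were 19 and 9.

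The assay was reduced representation bisulfite sequencing (RRBS), run on dentate gyrus dissected from 15 female C57BL/6JRj mice aged 7.5 months. The dentate gyrus is the entry region of the hippocampus and holds a dense layer of granule neurons. Per housing label, 5 mice had lived in standard cages for 6 months (standard), 5 in environmental enrichment for 6 months (enriched), and 5 in enrichment for 3 months and then in standard cages for 3 months (withdrawal). All 3 groups were of the same strain, sex and age, and the labels name no drug or genetic change. The labels name no litter, cage or batch either, so p-values measure the spread between the mice as labelled. The tissue was not sorted, so each percentage averages over all cell types present.

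Genes of this size are mostly intron, and many of them encode synaptic adhesion molecules, receptors and ion channels that neurons express. Gene bodies usually carry methylation at CpG pairs, while active promoters and other regulatory stretches usually lack it. Mature neurons also carry methylation at cytosines outside CpG, mainly before an adenine (CA); it is laid down by DNMT3A. RRBS cuts DNA at CCGG and reads the fragments after bisulfite treatment, and its result at each cytosine is the percent of reads that kept a C.

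The starts of transcripts inside long genes were not part of the rule, and the RefSeq start table lists 234 starts that lie more than 5 kb inside the long gene they belong to. The 300-base windows around starts, from 250 bases before to 50 after, held complete CpG sites of long gene bodies in 13 cases outside chromosomes 8 and 18, whose start windows were not used for sequence. The mean CpG methylation was under 20% in 10 of these windows and above 80% in 2, and all 6 windows that belonged to the long gene itself were under 20%. Sequences are shown for 4 windows with low and 2 with high methylation, because CpG levels in long gene bodies differed with the distance to the nearest RefSeq start of any gene. They come from RefSeq on GRCm38.p6, 5′ to 3′ on the strand of the named start, and capitals mark the CG pairs with a cytosine measured in every mouse.
Internal start of Esr1, chr10:4709908-4710207 (+): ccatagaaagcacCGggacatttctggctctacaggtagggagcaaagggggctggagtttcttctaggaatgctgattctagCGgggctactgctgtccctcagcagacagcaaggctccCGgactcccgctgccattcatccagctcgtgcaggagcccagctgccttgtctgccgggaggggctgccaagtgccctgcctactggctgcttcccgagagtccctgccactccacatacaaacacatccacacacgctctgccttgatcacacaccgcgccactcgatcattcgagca
Internal start of Dpp6, chr5:27048949-27049248 (+): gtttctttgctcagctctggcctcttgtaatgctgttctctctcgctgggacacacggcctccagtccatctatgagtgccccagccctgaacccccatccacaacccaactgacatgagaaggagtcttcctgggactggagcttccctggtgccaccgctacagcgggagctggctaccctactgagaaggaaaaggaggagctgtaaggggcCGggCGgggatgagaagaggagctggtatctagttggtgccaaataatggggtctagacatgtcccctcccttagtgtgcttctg
Internal start of Sox6, chr7:115824661-115824960 (-): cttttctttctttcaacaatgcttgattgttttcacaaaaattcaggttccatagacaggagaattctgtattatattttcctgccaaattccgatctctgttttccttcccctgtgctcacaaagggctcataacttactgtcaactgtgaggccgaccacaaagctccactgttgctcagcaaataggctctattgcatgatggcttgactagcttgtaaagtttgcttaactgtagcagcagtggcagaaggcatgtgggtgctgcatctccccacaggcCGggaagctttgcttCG
Start of Trim32 inside Astn2, chr4:65604736-65605035 (+): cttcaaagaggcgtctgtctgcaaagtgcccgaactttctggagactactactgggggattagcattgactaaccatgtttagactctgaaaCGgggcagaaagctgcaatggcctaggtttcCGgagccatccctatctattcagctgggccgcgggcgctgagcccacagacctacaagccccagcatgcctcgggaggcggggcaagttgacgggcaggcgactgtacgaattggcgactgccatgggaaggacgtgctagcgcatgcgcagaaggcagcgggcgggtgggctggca
Start of Gm9839 inside Khdrbs2, chr1:32520950-32521249 (-): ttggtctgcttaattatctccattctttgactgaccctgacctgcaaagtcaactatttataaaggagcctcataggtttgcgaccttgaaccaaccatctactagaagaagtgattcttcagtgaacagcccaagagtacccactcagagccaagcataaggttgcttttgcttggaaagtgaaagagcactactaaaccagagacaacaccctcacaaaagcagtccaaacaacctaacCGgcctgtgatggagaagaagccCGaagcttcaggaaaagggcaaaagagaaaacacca
Start of Gm42191 inside Naaladl2, chr3:23939774-23940073 (+): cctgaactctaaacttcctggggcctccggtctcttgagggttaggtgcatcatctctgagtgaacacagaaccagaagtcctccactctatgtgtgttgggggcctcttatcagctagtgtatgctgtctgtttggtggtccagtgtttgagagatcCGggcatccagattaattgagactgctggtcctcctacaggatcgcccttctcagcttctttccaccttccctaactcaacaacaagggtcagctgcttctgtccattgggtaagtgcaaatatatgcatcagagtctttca

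Esr1, the estrogen receptor alpha, had 4 complete sites in its window, with a mean of 4.70% over all mice and single sites from 0.444 to 9.64%. Dpp6, an auxiliary subunit of A-type potassium channels, had a mean of 2.32% over 2 sites. Sox6, a transcription factor of neural and muscle development, had 5.93% over 2 sites. The start of Trim32, a ubiquitin ligase encoded inside the astrotactin gene Astn2, lies in the window with the most CG pairs of the 13, 18 in all, and had 2.20% over 2 sites. The windows of Esr1, Dpp6 and Sox6 held 12, 6 and 4 CG pairs. The 2 shown windows with high methylation held 3 CG pairs each. That of Gm9839 inside Khdrbs2 had 95.2% over 2 sites and that of Gm42191 inside Naaladl2 had 99.0% at 1 site. A relation of methylation to the number of CG pairs was not tested. All 13 windows contained CCGG, which reads the same on both strands; RRBS reads next to CCGG, so a window with a measured site is likely to hold it by the method, and the share among all 31,409 RefSeq start windows on the chromosomes used was 52.8%.

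CpG methylation of long gene bodies was higher away from starts than near them. In sites under 1 kb from the nearest RefSeq start of any gene it averaged 22.0% ± 0.945 (SD over 15 mice, 175 sites). It was 42.4% ± 1.72 at 1 to 2 kb (100 sites), 56.8% ± 2.20 at 2 to 5 kb (156 sites) and 57.3% ± 1.64 at 5 to 20 kb (673 sites). At 20 to 50 kb it was 60.0% ± 1.33 (1205 sites) and at 50 to 100 kb 58.9% ± 1.43 (1348 sites). Beyond 100 kb it was 67.6% ± 1.03 (2788 sites). Sites within 2 kb of a start averaged 29.7% ± 1.14 and the others 62.8% ± 1.21, a difference of -33.2 points that had the same sign in all 15 mice (two-sided exact sign-flip permutation p = 6.10352e-05, the smallest that 15 mice can give; adjusted over 11 such tests 9.59e-05). Non-CpG methylation had the same order, with 0.749% ± 0.0920 within 2 kb of a start and 1.05% ± 0.0452 elsewhere (same exact p, lower near starts in all 15 mice). Chromosome 18 is left out of these values, because its starts were not used here, and the comparison was added after the data had been seen.

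**Figure D1:**
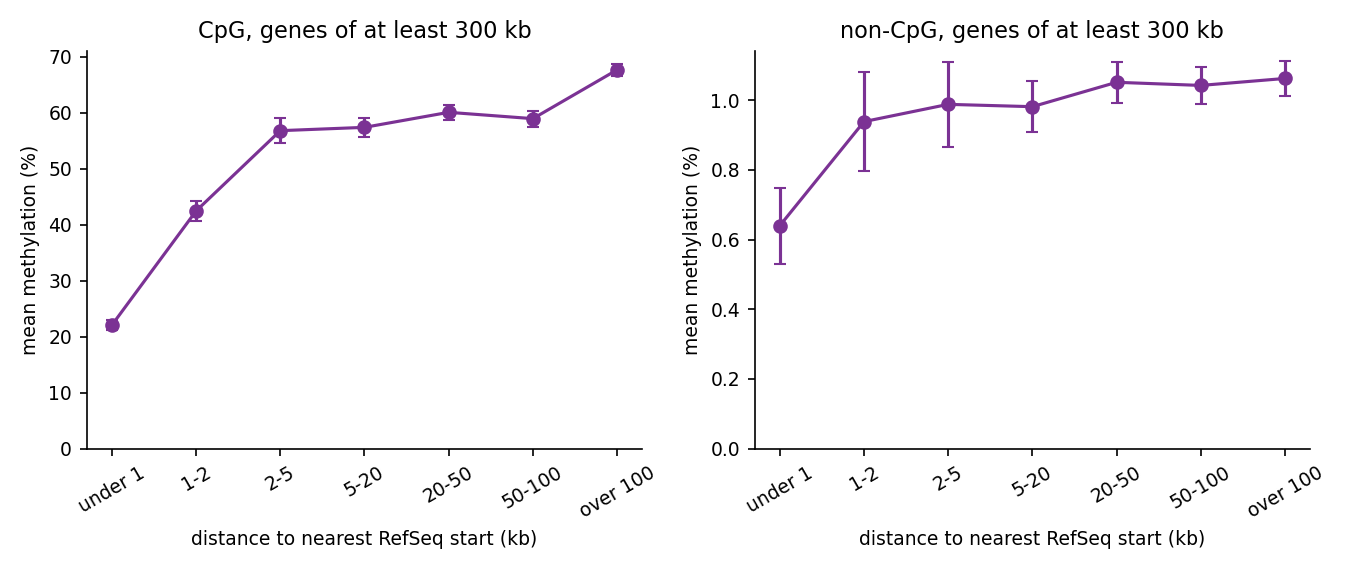
Mean methylation (%) of sites in long gene bodies by distance to the nearest RefSeq start (kb), for CpG and non-CpG sites; points are means and bars SDs over 15 mice. CpG methylation was 22.0% under 1 kb and 67.6% beyond 100 kb, and non-CpG methylation 0.640% and 1.06%.

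Over all complete sites, long gene bodies had a mean CpG methylation of 61.0% ± 1.17 (SD, n = 15 mice). Of the 6765 sites, 22.3% were under 20% on average, 30.6% fell from 20 to 80%, and 47.1% were above 80%. Of the sites under 20%, 12.6% lay within 2 kb of a RefSeq start, against 1.72% of the sites above 80%. The share within 2 kb of a start over all sites of long gene bodies was 4.28%. In the bodies of shorter genes, chosen by the same window and edge rules, 23.6% of sites were under 20% and 49.8% above 80%. Closeness to starts was not particular to long genes. In shorter genes 20.2% of the sites under 20% lay within 2 kb of a start, against 2.29% of those above 80%. Between genes these shares were 11.9% and 2.52%. The difference of long minus shorter genes (61.8% ± 1.04) was -0.809 points, lower in 14 of 15 mice (exact sign-flip permutation p = 0.000122, adjusted 0.000149). That direction turned with the choice of sites. With sites measured in at least 3 mice of each group long genes were 1.42 points higher (sign-flip adjusted p = 7.46e-05). For genes of at least 500 kb they were 0.892 points higher (sign-flip adjusted p = 0.000112). The sign-flip p measures agreement between mice over 1 fixed set of sites, not the spread over sites or genes. Against sites more than 5 kb from any protein-coding gene (69.6% ± 0.895), long gene bodies had a difference of -8.64 points, lower in all 15 mice (exact p = 6.10352e-05, adjusted 9.59e-05).

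By length, genes of 300 to 400 kb averaged 60.0% ± 1.34 at 1751 sites and genes of more than 1000 kb averaged 64.9% ± 1.01 at 1207 sites, with 59.5% and 61.0% in the classes between, split at 600 kb. Along the gene, the first of 3 equal stretches of the body averaged 60.3% ± 1.23 and the last 62.3% ± 1.13 in genes with a known strand (405 of 533), a difference of -2.03 points with the same sign in all 15 mice (exact p = 6.10352e-05, adjusted 9.59e-05). With sites in at least 3 mice of each group this difference was 0.684 points, with the first stretch higher (sign-flip adjusted p = 0.00107).

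Non-CpG methylation of long gene bodies averaged 1.03% ± 0.0423 (SD, n = 15 mice). No bisulfite conversion rate was used here, so C reads left by incomplete conversion were not told apart from methylation at these low levels. Of the 45,384 sites, 36.1% were at 0 in every mouse, 61.0% had a mean above 0 and up to 5%, and 133 sites (0.293%) in 80 genes had a mean of 20% or more. The letter after the cytosine could be read in the 69 CA, 58 CC and 80 CT sites that fell in start windows. Methylation there was 0.970% ± 0.272 at CA, 0.438% ± 0.313 at CC and 0.410% ± 0.154 at CT (SD over mice). CA exceeded CT in all 15 mice by 0.560 points (exact sign-flip permutation p = 6.10352e-05, adjusted 9.59e-05) and CC in 14 of 15 mice by 0.531 points (p = 0.000671). Over all autosomal start windows CA was also the highest, with 0.907% at CA, 0.368% at CC and 0.388% at CT.

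Long genes had more non-CpG methylation than shorter genes (0.985% ± 0.0401), by 0.0445 points in 14 of 15 mice (exact sign-flip permutation p = 0.000122, adjusted 0.000149). Without a run of 17 cytosines in Tmem132c, a gene for a transmembrane protein, the difference was 0.00738 points (adjusted p = 0.365). With that run kept and only sites more than 20 kb from gene ends used, it was 0.00940 points (adjusted p = 0.316). The difference from sites between genes was -0.0926 points, lower in all 15 mice. It became 0.0639 points once sites with a mean of 20% or more were left out (sign-flip adjusted p = 0.000214). With sites in at least 3 mice of each group it was 0.0507 points (sign-flip adjusted p = 7.46e-05). Cytosines on the strand of the gene averaged 0.980% ± 0.0387 and those on the other strand 1.10% ± 0.0521, a difference of -0.125 points in all 15 mice (exact p = 6.10352e-05, adjusted 9.59e-05). The run in Tmem132c lies on the minus strand, and without it the strand difference was -0.0409 points (adjusted p = 0.00406). Other choices gave -0.0141 points for genes of at least 200 kb, -0.0348 for at least 500 kb and 0.0102 with sites in at least 3 mice of each group, all with adjusted p above 0.05. The first of 3 stretches exceeded the last by 0.0793 points in 14 of 15 mice (exact p = 0.000366, adjusted 0.000403), and by 0.0151 points (adjusted p = 0.349) without sites of 20% or more.

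The run in Tmem132c (chr5:127241826-127565790) held 17 cytosines of the minus strand between positions 127433094 and 127433157, a span of 64 bases, mostly 4 bases apart. Of these, 16 were at 100% in every mouse, and the other, at 127433117, had a mean of 99.9% and a lowest mouse of 98.7%. They gave Tmem132c the highest non-CpG mean of the long genes with at least 50 sites, 12.3%, with mice from 11.8 to 12.7%. The letter after the cytosine was read only in start windows, which did not reach this run. Whether the run reflects methylation, mapping or the reference sequence was not tested. Outside this gene, 3 non-CpG sites had a mean of 80% or more: a pair at neighbouring bases in Rgs6, a regulator of G protein signalling, at 100% in every mouse, and 1 site in Macrod2, a mono-ADP-ribosylhydrolase, at 99.8%. The other high sites were lower and more variable, as in the mitotic checkpoint gene Mad1l1 (chr5:140008689-140321608, mean 3.18%), where 3 sites averaged 22.1, 52.3 and 35.3% and the second ran from 12.2 to 100% between mice. Foxp2 (chr6:14901349-15441977, mean 3.04%), a transcription factor gene, had 1 such site at 29.7%. Between genes, 0.411% of non-CpG sites had a mean of 20% or more, and in shorter genes 0.249%.

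**Figure D2:**
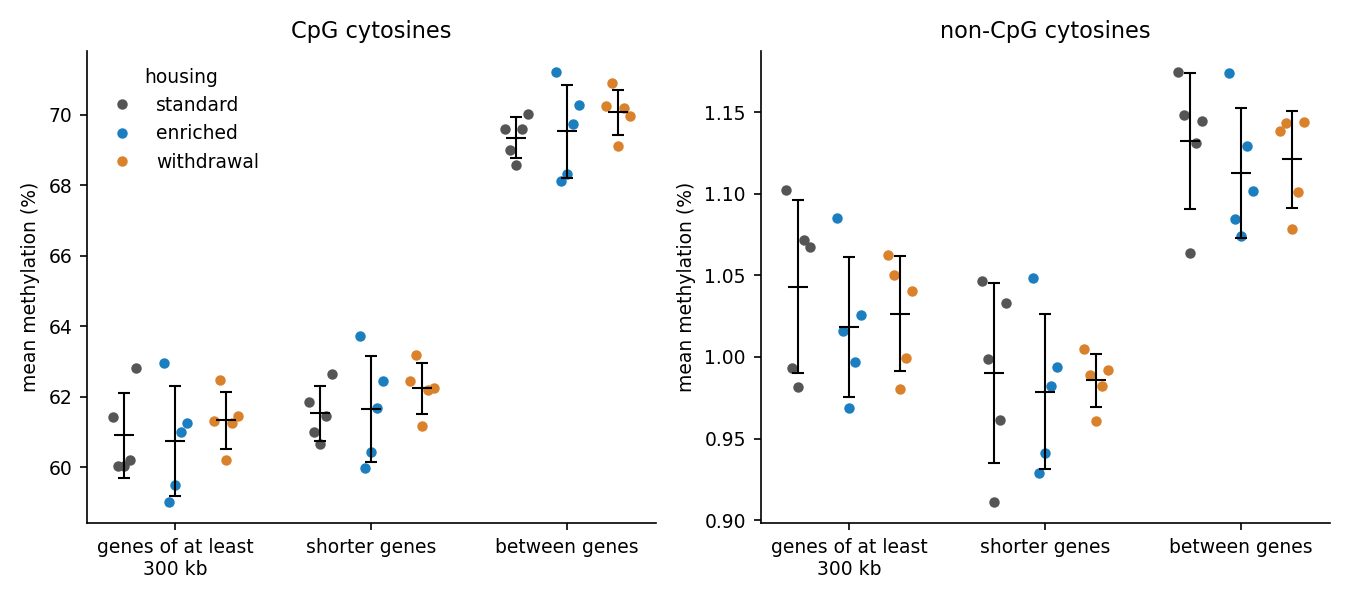
Mean methylation (%) per mouse of CpG sites (first panel) and non-CpG sites (second panel) in long gene bodies, shorter gene bodies and between genes; 1 point is 1 mouse, bars are the mean and SD of 5 mice per housing group, and the axes do not start at 0. Housing groups overlap everywhere, and CpG values between genes lie above those of both gene classes.

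No housing difference was detectable in the mean CpG methylation of long gene bodies. The standard mice had 61.4, 60.1, 60.0, 60.2 and 62.8%, the enriched mice 63.0, 59.0, 59.5, 61.0 and 61.3%, and the withdrawal mice 61.3, 62.5, 60.2, 61.3 and 61.5%. The highest and the lowest mouse of the study were both enriched, and enriched mouse 1 was also the highest, and enriched mouse 2 the lowest, in shorter genes and between genes. Enriched minus standard was -0.157 points, withdrawal minus standard 0.433 and withdrawal minus enriched 0.589, each with an exact permutation p of 0.857 after adjustment over the 3 comparisons, where 5 against 5 mice can reach 0.00794. These differences were smaller than the SD of the standard (1.21) and enriched (1.56) mice. The housing difference in long genes did not differ detectably from that in shorter genes either, at -0.280, -0.283 and -0.00295 points for the 3 comparisons (exact permutation, adjusted p from 0.524 to 0.976).

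Mean non-CpG methylation was 1.10, 0.993, 0.981, 1.07 and 1.07% in the standard, 1.08, 1.02, 0.969, 0.997 and 1.03% in the enriched, and 1.06, 1.05, 0.981, 0.999 and 1.04% in the withdrawal mice. The 3 ranges overlapped over most of their width. Enriched minus standard was -0.0247 points, withdrawal minus standard -0.0165 and withdrawal minus enriched 0.00814 (exact permutation, adjusted p = 0.738 for each). The number of CpG positions of long genes with a value ran from 17,489 (78.7%) in standard mouse 1 to 21,709 (97.6%) in withdrawal mouse 4. The withdrawal mice had 91.8, 91.3, 85.4, 97.6 and 90.8% of these positions. All of them but mouse 3 lay above every standard mouse (highest 88.7%) and every enriched mouse (highest 90.2%). This count bears on depth, for which no read counts were given. Its part in the comparisons with withdrawal mice was not tested.

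Single long genes ranged widely in CpG methylation. Their body means ran from 4.97% in Csgalnact1, a chondroitin sulfate synthesis gene with 4 sites, to 98.8%, with a median of 66.2% and quartiles of 47.6 and 81.4%. Means under 20% were found in 15 of 479 long genes (3.13%) and means above 80% in 127 (26.5%), against 11.7% and 38.3% of 2506 shorter genes, which had a median of 69.3%. Over single sites these shares lay closer, at 22.3% and 47.1% in long against 23.6% and 49.8% in shorter gene bodies. The part played by the number of sites per gene was not tested. Long genes had a median of 11 CpG sites, and the SD between the mice of a group was 4.19 points in the median gene. Non-CpG means had a median of 0.849%, against 0.766% in shorter genes. Across the 479 long genes with both values, CpG and non-CpG means had a Spearman rho of 0.229, and length had a rho of 0.0265 with CpG and 0.0438 with non-CpG means; the genes share libraries and some share sites, so these are descriptions.

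**Figure D3:**
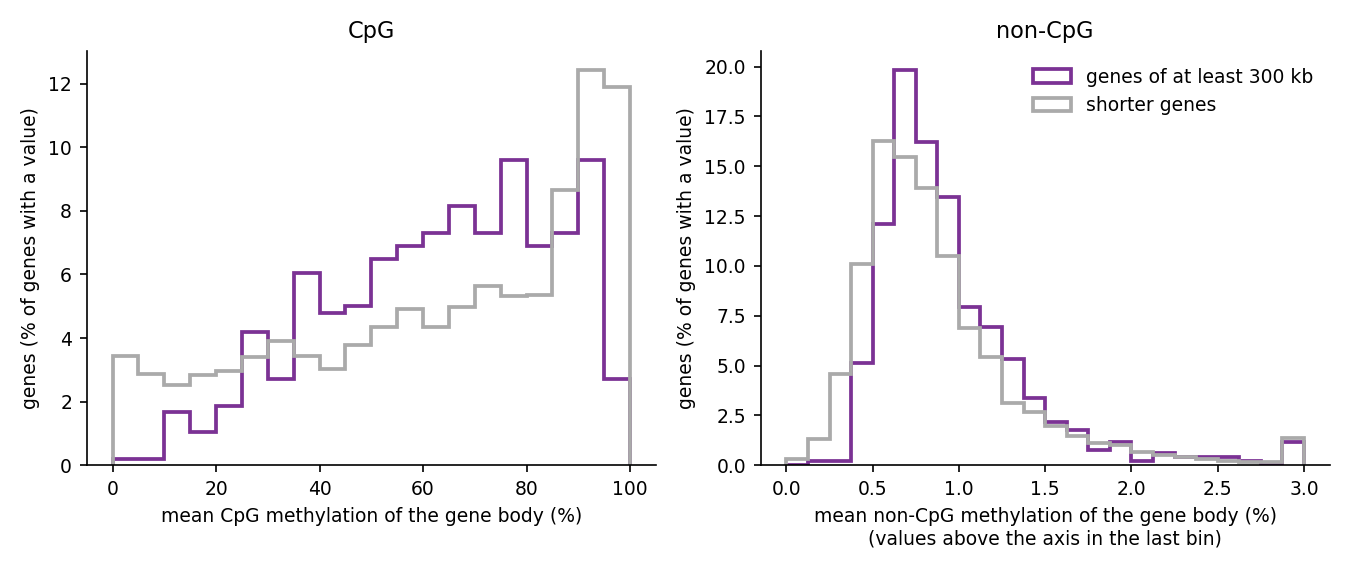
Share of genes (% of genes with a value) by mean methylation (%) of the gene body, for genes of at least 300 kb and shorter genes, CpG in the first panel and non-CpG in the second, where values above the axis are in the last bin. Long genes hold a smaller share under 20% (3.13%) and above 80% (26.5%) CpG methylation than shorter genes (11.7% and 38.3%). Over single sites the shares lay closer, at 22.3% and 47.1% in long against 23.6% and 49.8% in shorter gene bodies.

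The lowest CpG means among long genes with at least 10 sites belonged to 2 regulators of transcription and a channel subunit. Tcf4 (chr18:69343429-69687967), a basic helix-loop-helix factor, averaged 9.79% over 55 sites, of which 51 were under 20%, with mice from 6.28 to 16.3%. Nfia (chr4:97578066-98118876), a nuclear factor I gene of glial and neuronal development, averaged 11.7% over 42 sites, 37 of them under 20%. The sites of Nfia lay in 19 windows, of which 15 averaged under 20%, and 5 sites lay within 2 kb of a RefSeq start. Dpp6 (chr5:26817357-27727500) averaged 10.8%, but 8 of its 10 sites lay in a single 1 kb window at its internal start, with a mean of 1.76%, and its highest site had 82.8%. Zbtb20 (chr16:42875689-43634392), a transcription factor of hippocampal development, had 20.6% over 19 sites.

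Among long genes with at least 10 sites, the highest means belonged to Patj (chr4:98395560-98719603), a scaffold of cell polarity, with 96.0% over 15 sites, the cadherin gene Cdh18 (chr15:22548898-23477491) with 95.7% over 10 sites, and Dnah5 (chr15:28154854-28472045), an axonemal dynein of motile cilia, with 95.2% over 12 sites. In all 3 of these genes every site was above 80%. The 3 longest genes with a value were Ptprd (chr4:75941237-78211742), a receptor tyrosine phosphatase of synapse formation, with 71.8% over 16 sites, Cntnap2 (chr6:45060061-47301393), a neurexin-like adhesion gene, with 82.2% over 16 sites, and Lsamp (chr16:39984254-42181679), a limbic adhesion molecule, with 89.0% over 15 sites. None of these 3 genes had a CpG site under 20%.

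The genes with most CpG sites showed mixed bodies. Wwox (chr8:114439635-115352712), an oxidoreductase gene at a common fragile site, had 104 sites with a mean of 57.8%, 23 of them under 20% and 45 above 80%. Tenm3 (chr8:48225665-49522824), a teneurin that guides synaptic partner choice, had 91 sites with a mean of 71.5%, and Tenm2 (chr11:36006656-37237053), of the same family, had 57 sites with a mean of 40.0%. Grip1 (chr10:119453238-120087267), a scaffold of AMPA receptors, had 80 sites with a mean of 74.3%. The family members Tenm2 and Tenm3 did not overlap in any mouse, with 36.6 to 45.0% in Tenm2 and 68.4 to 73.5% in Tenm3. The gene models Gm37013 and Gm38667 on chromosome 18 overlap each other and span the clustered protocadherin locus. Their 81 and 78 sites averaged 62.9 and 63.4%. In Gm37013 standard mice had 54.7 to 65.2%, enriched mice 63.6 to 65.4% and withdrawal mice 62.2 to 66.6% (enriched minus standard limma adjusted p = 0.908).

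Genes were also grouped by what they encode. Among synaptic adhesion and cell contact genes 48 of 51 listed were tested, with a median CpG mean of 65.4% and a range from 13.6% to 95.7%. Neurotransmitter receptor and ion channel genes (37 of 47 tested) had a median of 61.3%, signalling and scaffold genes (34 of 43) 62.9%, and genes known as common fragile sites (18 of 19) 63.5%. The lowest median, 56.4%, was that of nuclear factors and RNA-binding proteins (24 of 36 tested), the list that holds Tcf4 and Nfia. The median over all 479 long genes was 66.2%, above that of each list. Only long autosomal genes could be tested. These numbered 50 of the 51 adhesion, 41 of the 47 receptor and channel, and 38 of the 43 signalling genes. In the nuclear factor list they numbered 25 of 36, and in the fragile-site list 19 of 19. For reference, Dab1 (chr4:103619500-104744844), the reelin adaptor, had 34.7% over 52 sites, the L-type calcium channel gene Cacna1c (chr6:118587240-119197384) 49.2% over 31, the kainate receptor gene Grik4 (chr9:42518182-42945000) 50.6% over 32, the scaffold gene Magi2 (chr5:19219387-20704792) 61.2% over 31, and the SoxD factor Sox5 (chr6:143828425-144782287) 60.4% over 61. Median non-CpG means of the 5 lists lay between 0.838% and 0.950%.

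Gene by gene, no long gene differed between housing groups in CpG methylation by limma at an adjusted p under 0.05, adjusted over all 2985 gene bodies tested. For enriched minus standard 0 of 479 long genes were called, where 0.067% of all gene bodies were; 12 long genes had an unadjusted p under 0.05, 3 higher and 9 lower (2.51%, against 5.59% of all gene bodies, 3.05% higher and 2.55% lower). For withdrawal minus standard 0 were called (0% of all) and 12 had an unadjusted p under 0.05, 9 higher and 3 lower (2.51%, against 4.39%, 2.85% higher and 1.54% lower). For withdrawal minus enriched 0 were called (0% of all) and 9 had an unadjusted p under 0.05, 8 higher and 1 lower (1.88%, against 4.29%, 2.61% higher and 1.68% lower). The middle 95% of the long genes' enriched minus standard differences lay between -6.59 and 5.57 points, and their median was 0.0587 points, against 0.173 over all gene bodies. The medians of the other comparisons were 0.528 points (withdrawal minus standard, 0.569 over all) and 0.526 (withdrawal minus enriched, 0.474 over all). The smallest adjusted p-values of long genes in limma were 0.844, 0.785 and 0.996. The counts at an unadjusted p under 0.05 moved when single mice were left out: to 19 without standard mouse 3 or 4 for enriched minus standard, to 6 without withdrawal mouse 3 for withdrawal minus standard, and to 18 without enriched mouse 1 and 15 without enriched mouse 4 for withdrawal minus enriched.

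**Figure D4:**
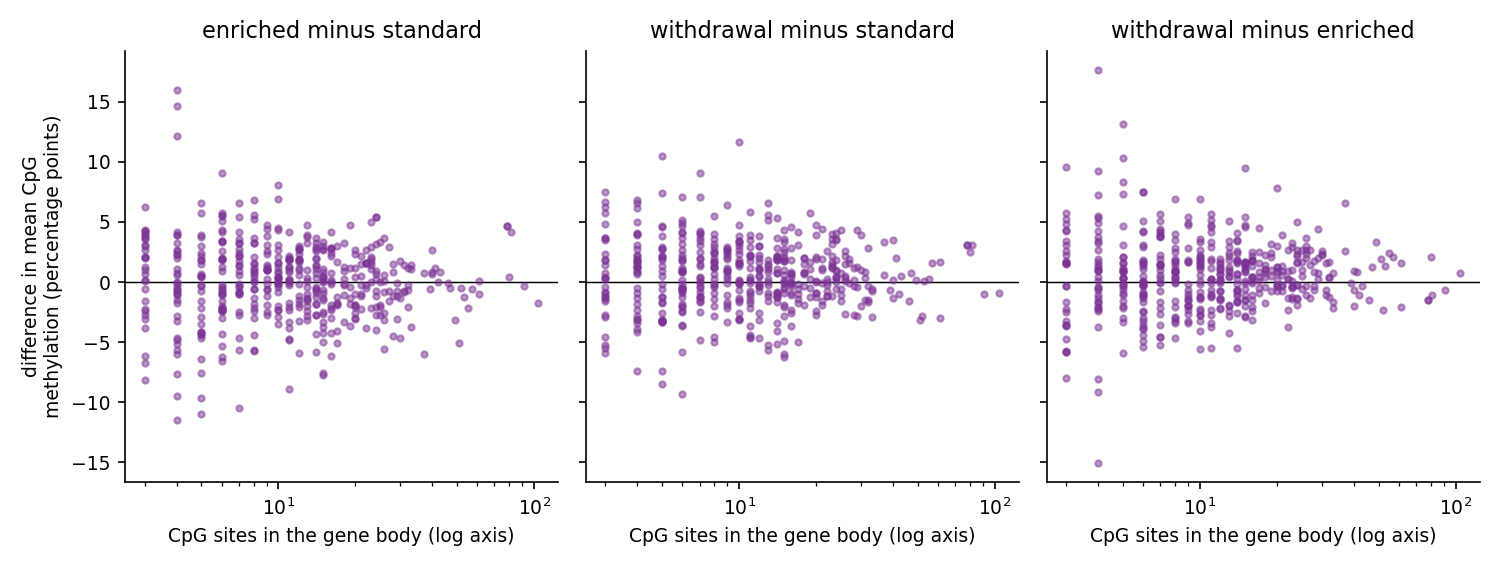
Difference in mean CpG methylation (percentage points) of each of 479 long genes against its number of CpG sites (log axis), 1 panel per comparison and 1 point per gene. Points with the largest differences, up to 17.6 points, have few sites, and no gene passed the adjusted threshold.

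The genes with the smallest p in a comparison are described with all mice, as the nearest to a housing difference that the data hold. Cdh13 (chr8:118140017-119324929), which encodes the membrane-anchored T-cadherin, had 65.5, 66.5, 64.7, 64.2 and 68.1% in standard, 62.2, 61.1, 62.5, 59.7 and 58.2% in enriched and 61.5, 63.6, 64.3, 60.4 and 63.4% in withdrawal mice, over 51 sites. All 5 enriched mice lay below all standard mice, and the withdrawal mice overlapped the standard mice only at 64.3%. The enriched minus standard difference was -5.08 points (limma log2 ratio -0.28 ± 0.11 SE, adjusted p = 0.844), and with sites in at least 3 mice of each group it was 0.167 points. Groups without overlap occurred in this comparison in 3 of 479 long genes (0.626%), against 0.67% of all gene bodies.

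Frmd4b (chr6:97286867-97617657), a FERM-domain scaffold gene with 7 sites, had 15.3, 16.6, 15.3, 17.6 and 22.9% in standard and 27.6, 25.7, 17.3, 21.9 and 28.0% in enriched mice. Enriched mouse 3 and standard mouse 5 overlapped, and 3 of 5 enriched mice lay above all standard mice (difference 6.54 points, limma adjusted p = 0.844). That difference was 3.06 points with sites in at least 3 mice of each group and 4.02 points with no limit on CpG positions per window. The withdrawal mice had 16.3 to 19.9%, within the standard range. Kcnh7 (chr2:62693410-63184287), an ERG-type potassium channel gene, averaged 85.3% in standard and 75.8% in enriched mice over 4 sites (adjusted p = 0.844), with 2 of 5 enriched mice below all standard mice.

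Grm7 (chr6:110645349-111567230), the presynaptic metabotropic glutamate receptor mGluR7, had the smallest p for withdrawal minus standard. It had 89.6, 89.2, 84.8, 87.1 and 90.9% in standard, 92.2, 91.4, 90.2, 92.7 and 94.1% in enriched and 93.6, 91.6, 94.8, 93.2 and 92.0% in withdrawal mice, over 5 sites. All 5 withdrawal mice and 4 of 5 enriched mice lay above all standard mice; both comparisons share those standard mice. The withdrawal minus standard difference was 4.69 points (limma log2 ratio 0.54 ± 0.17 SE, adjusted p = 0.785) and the enriched minus standard difference 3.77 points (adjusted p = 0.844). The withdrawal minus standard difference was 7.25 points with sites in at least 3 mice of each group. Zmat4 (chr8:23647326-24063117) was lower by group mean, with 93.6% in standard and 87.8% in withdrawal mice over 6 sites and no overlap between them (adjusted p = 0.987). Kirrel3 (chr9:34485853-35040807), an adhesion gene of mossy fibre synapses, averaged 58.3% in standard and 69.9% in withdrawal mice over 10 sites, with 4 of 5 withdrawal mice above all standard mice (adjusted p = 0.987). Its difference of 11.6 points became 4.81 with sites in at least 3 mice of each group. Groups did not overlap in this comparison in 0.418% of long genes, against 0.871% of all gene bodies.

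For withdrawal minus enriched, Zfp536 (chr7:37318023-37774039), a zinc-finger repressor of neuronal differentiation, had 46.6, 50.8, 49.1, 50.2 and 47.6% in enriched and 53.7, 51.6, 60.5, 58.0 and 59.6% in withdrawal mice over 20 sites. All withdrawal mice lay above all enriched mice (difference 7.82 points, limma log2 ratio 0.41 ± 0.13 SE, adjusted p = 0.996), and the standard mice, at 45.4 to 56.6%, overlapped both. Kcnip4 (chr5:48389503-49525122), a potassium channel interacting protein, also had no overlap, with 71.5% in enriched and 77.0% in withdrawal mice over 15 sites (adjusted p = 0.996). Spock3 (chr8:62951000-63357101), an extracellular proteoglycan gene, had the largest difference of any long gene, 17.6 points, but over only 4 sites, with 56.5 to 76.6% in enriched and 75.1 to 100% in withdrawal mice. With sites in at least 3 mice of each group the differences were smaller, at 3.01 points in Zfp536, 2.45 in Kcnip4 and 6.88 in Spock3, and in windows with fewer than 4 CpG positions that of Zfp536 was 4.77. In this comparison 0.626% of long genes had no overlap, against 0.771% of all gene bodies.

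**Figure D5:**
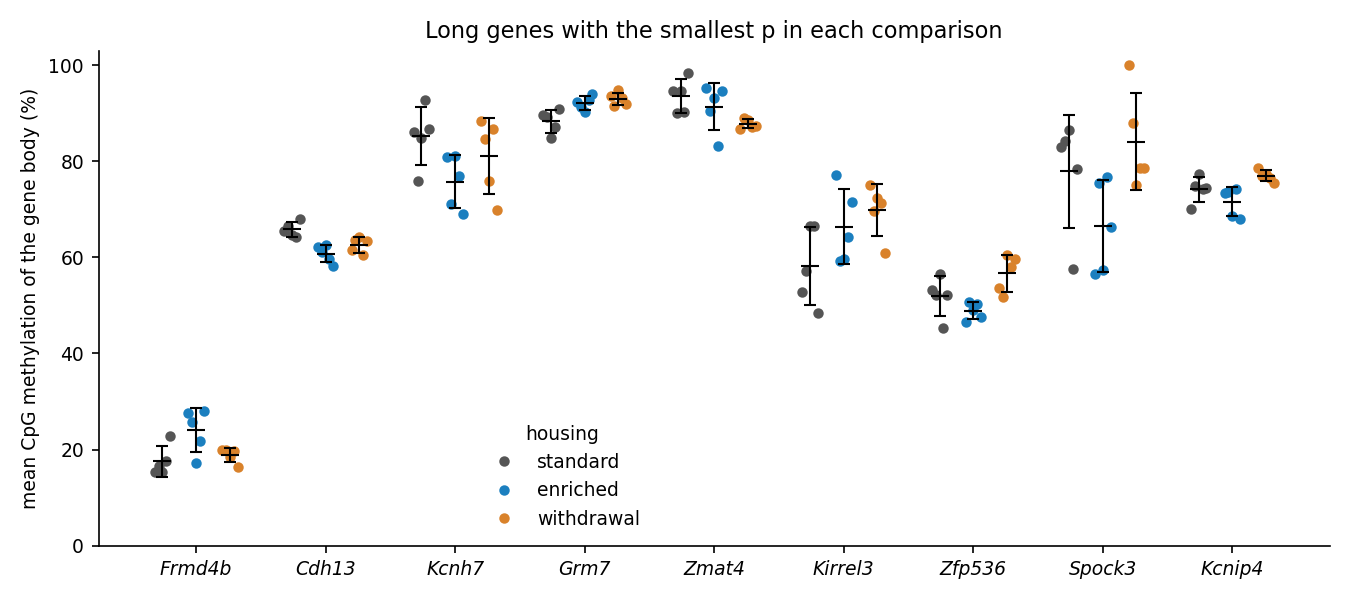
Mean CpG methylation (%) of the gene body per mouse for the 9 long genes with the smallest p, 3 per comparison; 1 point is 1 mouse and bars are the mean and SD of 5 mice. Groups do not overlap for Cdh13 (enriched and standard), Grm7 and Zmat4 (withdrawal and standard), and Zfp536 and Kcnip4 (withdrawal and enriched).

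By gene list, called genes numbered 0 in every list and comparison for CpG. Unadjusted p-values under 0.05 for enriched minus standard were found in 2 of 48 synaptic adhesion genes, both lower, in 1 higher and 1 lower of 37 receptor or channel genes and in 1 lower of 34 signalling genes, where all gene bodies had 5.59%. For withdrawal minus standard they were found in 2 of 48 adhesion and 2 of 37 channel genes, all higher, and in 1 lower of 34 signalling genes, against 4.39% of all. For withdrawal minus enriched they were found in 1 higher of 37 channel genes and in 1 higher and 1 lower of 34 signalling genes, against 4.29% of all. The 24 nuclear factor and 18 fragile-site genes had 0 in all 3 comparisons. The median enriched minus standard differences of the lists ran from -0.326 to 0.171 points, beside 0.173 over all gene bodies.

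Non-CpG methylation gave no called long gene either, of 505 tested among 4378 gene bodies (0% of all in each comparison; limma). Unadjusted p-values under 0.05 were found in 14 long genes for enriched minus standard, 6 higher and 8 lower (2.77%, against 5.73% of all, 2.6% higher and 3.13% lower). For withdrawal minus standard they were found in 11, 9 higher and 2 lower (2.18%, against 5.3% of all, 3.06% higher and 2.24% lower). For withdrawal minus enriched they were found in 12, 10 higher and 2 lower (2.38%, against 4.73% of all, 2.88% higher and 1.85% lower). As for CpG, these shares were below those of all gene bodies in each comparison. The limma variance trend followed the mean level and took no account of the number of sites per gene. The lower shares are therefore not read as a trait of long genes. Adk (chr14:21052574-21448569), adenosine kinase, had the smallest p, with 2.08, 0.776, 1.42, 1.53 and 1.46% in standard and 0.288, 0.471, 0.148, 0.558 and 0.756% in withdrawal mice over 52 sites. The withdrawal mice were all below the standard mice, the closest being 0.756 and 0.776%. The difference was -1.01 points (adjusted p = 0.758), but -0.135 points with sites in at least 3 mice of each group, and groups without overlap were found in 0.594% of long genes and 0.64% of all gene bodies. Dnah5 had 0.815, 0.609, 0.652, 0.369 and 1.56% in standard and 2.82, 2.53, 2.28, 1.74 and 2.32% in withdrawal mice over 38 sites, again without overlap (difference 1.54 points, adjusted p = 0.758). That difference was 0.601 points with sites in at least 3 mice of each group and 0.492 points in windows with fewer than 4 CpG positions. Without withdrawal mouse 4 the number of long genes with an unadjusted p under 0.05 for withdrawal minus standard was 17 in place of 11.

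For enriched minus standard the smallest p-values were those of Pid1 (chr1:84036293-84339842), a phosphotyrosine-binding adaptor gene, with 0.977% in standard and 2.22% in enriched mice over 32 sites (adjusted p = 0.589), and Unc5d (chr8:28646717-29219671), a netrin receptor family gene, with 1.06% and 0.371% over 69 sites (adjusted p = 0.653). With sites in at least 3 mice of each group the difference in Pid1 of 1.25 points became 0.0935, and that in Unc5d of -0.685 points became 0.103. In windows with fewer than 4 CpG positions the Unc5d difference was -0.404 points. For withdrawal minus enriched, Syt1 (chr10:108497650-109010980), the calcium sensor of synaptic vesicle release, had 0.374% in enriched and 1.54% in withdrawal mice over 59 sites, where withdrawal mouse 2 alone had 3.51% (adjusted p = 0.988). The Syt1 difference of 1.17 points was 0.672 without that mouse and 0.0502 with sites in at least 3 mice of each group. Groups did not overlap in 0.198% of long genes for enriched minus standard (0.571% of all gene bodies) and in 0.396% for withdrawal minus enriched (0.503% of all).

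Site by site, none of 6603 variable CpG sites of long genes was called by limma over 100,562 sites (0% of all sites in each comparison). Unadjusted p-values under 0.05 were found in 374, 332 and 319 of them for enriched minus standard, withdrawal minus standard and withdrawal minus enriched, which is 5.66%, 5.03% and 4.83%, against 5.15%, 4.42% and 4.3% of all sites. The site at chr1:70455927 (minus strand) in Spag16 (chr1:69826872-70725132), a gene of the sperm and cilium axoneme, was at 100% in all standard mice and at 85.7, 58.1, 83.7, 72.9 and 73.3% in enriched mice. The withdrawal mice had 100, 100, 77.4, 100 and 91.3% there, so that the enriched mice were all below the standard mice and overlapped the withdrawal mice (enriched minus standard adjusted p = 0.347). The site at chr16:43386876 (minus strand) in Zbtb20 was at 100% in all standard and enriched mice and at 66.7, 85.4, 52.9, 97.0 and 56.2% in withdrawal mice. Its adjusted p was 0.380 against standard and 0.442 against enriched mice, and 0.0213 and 0.0238 without withdrawal mouse 4, where 0.00796% and 0.00497% of all sites were called.

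Leaving out single mice brought 2 further CpG sites of long genes under the threshold. In each case 1 of 6603 sites of long genes was called (0.0151%). Without standard mouse 5, a site of Zbtb7c on chromosome 18 (76137298, plus strand), a zinc-finger factor gene, passed against both other groups (adjusted p = 0.0116 against enriched and 0.0134 against withdrawal mice), where 0.00696% and 0.00796% of all sites were called. Its values were 68.8, 71.4, 87.0, 66.7 and 100% in the standard group, and 100% in the other groups except for 1 withdrawal mouse at 98.1%. Without withdrawal mouse 3, a site of Cdkal1 at chr13:29769882, a tRNA-modifying enzyme gene, passed for withdrawal minus standard (adjusted p = 0.0496), where 0.0109% of all sites were called. It was at 0 in all standard and enriched mice and at 6.76, 7.50, 0, 6.85 and 12.7% in withdrawal mice.

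Of 21,534 variable non-CpG sites of long genes, 0 were called by limma over 284,738 sites, where 0.00421% of all were called for enriched minus standard, 0.00421% for withdrawal minus standard and 0% for withdrawal minus enriched. Unadjusted p-values under 0.05 were found in 512, 494 and 425 of them (2.38%, 2.29% and 1.97%, against 2.16%, 1.91% and 1.86% of all sites). The site at chr2:113083129 in Ryr3 (chr2:112631354-113217405), a calcium release channel gene, had 18.2, 48.5, 0, 0 and 21.4% in standard mice and 0 in all others (adjusted p = 0.632). The site at chr8:87861310 in Zfp423 (chr8:87661810-87962053), a zinc-finger developmental regulator, had 0, 11.7, 26.9, 46.3 and 30.2% in standard mice, 12.3, 0, 3.70, 0 and 0% in enriched mice and 0 in all withdrawal mice (withdrawal minus standard adjusted p = 0.601). The site at chr4:46863417 in Gabbr2 (chr4:46662318-46991714), a GABA-B receptor subunit gene, was at 0 in standard and enriched mice and at 7.79, 0, 23.3, 12.0 and 17.1% in withdrawal mice (adjusted p = 0.606). At each of these sites the group with the highest mean also held at least 1 mouse at 0.

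Marker genes of the cell types in the tissue were checked at their ends, within 1 kb. Of 19 markers, 6 had a complete CpG site there. Prox1, the granule neuron factor, had a mean of 1.73% over 3 sites, and no mouse exceeded 4.35%. The astrocyte transporter gene Slc1a3 had 1.63% over 10 sites (mice from 0 to 4.96%). The endothelial receptor gene Flt1 had 3.24% over 17 (0.604 to 6.45%). The other 3 varied widely between mice. The astrocyte gene Aldh1l1 had 33.4% over 8 sites (16.4 to 51.4%) and the microglial gene P2ry12 24.7% over 2 (0 to 51.4%). The myelin gene Mbp had 5.45% at 1 site (0 to 50%). The share of each cell type in a library was not measured.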

How the data were processed

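The deposited table gives percent methylation for each cytosine, strand and mouse, as the authors made it; no read count or coverage column accompanies it, so depth is unknown and no counting interval was computed. Per the submitters' processing notes, reads were handled with Trim Galore 0.4.0, cutadapt 1.8.1, Bismark 0.16.1 and methylKit 1.5.2 on mm10; coverage minimums are not given in the sources used here. The table runs through the chromosomes in sequence and then starts again. All 40,750 positions of the first run that fell in RefSeq start windows were CG, and of 118,733 of the second run 29.1% were CA, 37.3% CC and 33.6% CT, which checks build, position and strand. The first run was used as CpG, the second as non-CpG.

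Sites were averaged per gene body and mouse. limma 3.58.1 (R 4.3.3) was fitted with a variance trend to log2((percent + offset)/(100 - percent + offset)), with an offset of 5 points for CpG and for single sites and 1 for non-CpG gene means, over all gene bodies with at least 3 CpG or 10 non-CpG sites, and over all sites with a range of at least 5 points. P-values were two-sided and adjusted by Benjamini-Hochberg, with a threshold of 0.05. Values with 1 number per mouse were compared by exact permutation over the 252 arrangements of 5 against 5 mice, and differences within mice by exact sign-flip tests over 15 mice (32,768 sign patterns), adjusted over 11 tests. Scripts were tested on simulated data. Python 3.11.15, NumPy 2.4.6, pandas 2.3.3 and SciPy 1.17.1 were used.

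Members, lists and tests were chosen with earlier results of these data known. Long genes were named by rule: the 3 smallest limma p-values per comparison for CpG and 2 for non-CpG, the 5 with most CpG sites, the 3 highest and 3 lowest means (at least 10 CpG or 50 non-CpG sites), the 3 longest, 2 per gene list with most sites, and the single site with the smallest p per comparison. Csgalnact1, Rgs6, Macrod2, Zbtb7c, Cdkal1 and the genes of start windows were chosen after their values were seen. The tests of distance to starts and of the letter after the cytosine were added after seeing the data. Alternatives covered completeness of sites, gene length, window density, distance from ends, neighbouring genes, highly methylated non-CpG sites, offset, scale, site minimums, replicate block and each mouse in turn. No mice were copies of each other, with 13.9 to 27.8% of CpG sites identical between pairs. Exons, introns and gene-body sequence were not used here.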

Additional observations from a re-analysis of the deposited data

Results flagged for a closer look

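Named long genes, and the pooled means of long gene bodies (all sites, sites near starts, first and last stretch, and long minus shorter genes), were checked in each housing group for 1 mouse far from the other 4 (gap to the nearest mouse over the whole range above Dixon's critical value). Of 294 groups checked, 14 stood out, each in a single gene; chance gives about 1 in 20 groups, and the flags are given as values.

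For CpG methylation, standard mouse 4 had 57.5% in Spock3, where the other standard mice had 78.4 to 86.5%. Enriched mouse 1 had 63.2% in Wwox, against 54.3 to 56.1%, and 78.5% in Grip1, against 72.0 to 73.1%. It was also the mouse with the highest mean over all long gene bodies. Enriched mouse 5 had 20.2% in Ldb2, a LIM-domain binding protein gene, against 13.1 to 13.5%. Withdrawal mouse 2 had 91.3% in Lsamp, against 87.9 to 88.9%. Standard mouse 5 had 62.4% in Grik4, against 47.4 to 51.5%.

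For non-CpG methylation, standard mouse 1 had 1.28% in Spock3, against 0 to 0.240%, and 0.689% in the myosin gene Myo3a, against 0.233 to 0.353%. In Syt1 enriched mouse 2 had 0.984%, against 0.158 to 0.314%, and in Ptprd it had 2.99%, against 0.628 to 1.18%. Enriched mouse 3 had 1.11% in Nfia, against 0.568 to 0.715%. In Patj standard mouse 4 had 2.23%, against 1.15 to 1.39%. Enriched mouse 5 had 1.25% in Myo3a, against 0.207 to 0.371%. Withdrawal mouse 2 had 1.24% in Grik4, against 0.567 to 0.756%.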

How the results depend on the processing

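No long gene was called in any comparison, CpG or non-CpG, under any alternative run. Group differences over all long gene bodies stayed above an adjusted p of 0.05 throughout, and those near 0 changed sign. Enriched minus standard CpG became 0.119 points with sites in at least 3 mice of each group, 0.00196 for genes of at least 200 kb and 0.00647 as a mean over genes, and ran from -0.711 to 0.319 over mice left out in turn. Non-CpG withdrawal minus standard became 0.000923 with sites in at least 3 mice of each group, and withdrawal minus enriched -0.000541 in windows with fewer than 4 CpG rows and -0.00426 to 0.0247 over mice left out.

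For long minus shorter genes, the CpG difference of withdrawal minus enriched became 0.0859 (at least 3 mice), 0.0549 (200 kb), 0.00931 (no window limit) and 0.124 (20 kb from ends), with -0.0726 to 0.0528 over mice left out; withdrawal minus standard became 0.0635 (at least 3 mice). The non-CpG one of withdrawal minus enriched became -0.00436 (200 kb), -0.00183 (fewer than 4 CpG rows), -0.000189 (no window limit), -1.69e-05 (away from other genes) and -0.000408 (away from starts and without chromosome 18), with -0.00494 to 0.0131 over mice left out. Withdrawal minus standard became 0.00706 (at least 3 mice), with -0.0266 to 0.00234 over mice left out, and enriched minus standard ran from -0.0278 to 0.00111.

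Of the differences within mice, CpG long minus shorter became 1.42 points with sites in at least 3 mice of each group and 0.892 for genes of at least 500 kb. With sites in at least 3 mice, non-CpG long minus between genes became 0.0507, the CpG difference of first and last stretch 0.684 and the strand difference 0.0102; in that setting each mouse is averaged over the sites it has. The strand difference was -0.0141 at 200 kb and -0.0348 at 500 kb, and non-CpG long minus shorter 0.00940 at 20 kb from ends and 0.00738 without the Tmem132c run. Without sites of 20% or more, long minus between genes was 0.0639 and the first minus last stretch 0.0151. The cause was not tested. Distance to starts, CA against CC and CT, and CpG long against between genes kept direction and call in every alternative run. With sites in at least 3 mice the Cdh13 difference became 0.167 and that of Unc5d 0.103; those of Adk (-0.135), Pid1 (0.0935), Syt1 (0.0502), Dnah5 (0.601), Zfp536 (3.01), Kcnip4 (2.45), Spock3 (6.88), Kirrel3 (4.81) and Frmd4b (3.06) kept their sign and shrank by over 1.5 times, and that of Grm7 grew to 7.25.

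Called CpG sites of long genes numbered 0 to 1 over mice left out in each comparison, the exceptions to 0 being those without standard mouse 5 and withdrawal mice 3 and 4. Genes with an unadjusted CpG p under 0.05 numbered 27, 21 and 25 of 782 genes of at least 200 kb and 4, 6 and 2 of 204 of at least 500 kb, where all gene bodies had 5.59%, 4.39% and 4.29%. For non-CpG they numbered 27, 26 and 26 of 855, and 6, 4 and 5 of 209, where all gene bodies had 5.73%, 5.3% and 4.73%.

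No pairing of mice by replicate number was detectable. Correlations of same-numbered mice ran from -0.0383 to 0.0407 over 15 pairs, and those of other pairs from -0.0435 to 0.0456 over 60. Of the 15 mice, 4 were closest to their own number. With the replicate block no long gene or site was called, and the unadjusted CpG count of withdrawal minus standard was 6 in place of 12. The blocked exact tests of the CpG mean gave an adjusted p of 0.750, where 5 pairs can reach 0.0625.

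Depth is unknown. Over the 479 long genes, the SD of CpG methylation between mice of a group had a median of 4.19 points and quartiles of 3.14 and 5.87. How it changed with the number of sites per gene was not tested. With 5 mice per group, a CpG difference in a single gene has to be read beside the spread of that gene.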

Other observations

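Among the 15 long genes with a mean CpG methylation under 20% were, beside those named above, the synaptic adhesion gene Nlgn1, with 13.6% over 12 sites, and the polarity gene Pard3, with 15.1% over 12 sites. Beside the run in Tmem132c, 4 neighbouring non-CpG cytosines of the plus strand in Sox6 stood within 18 bases, between positions 115840466 and 115840483 of chromosome 7, with means from 26.0 to 43.2%. Sox5, of the same family, had 6 sites of 20% or more, spread over 581,745 bases, with means from 21.2 to 30.5%. These genes were chosen after their values were seen, and no test was made of them.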
